A study of Mus musculus with 5 samples.

Results

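The genes described here are 9 mouse genes known for their induction by type I interferon, namely Isg15, Ifit1, Ifit3, Irf7, Oasl1, Rsad2, Usp18, Bst2 and Ifi27l2a. They were found by symbol among the 32285 genes of the deposited tables, and each of the 9 symbols matched 1 row. Their levels and their detection in the same cell were followed in 22874 Cd3+ barcodes out of 25623, that is, barcodes with at least 500 unique molecular identifiers (UMIs), at most 10% mitochondrial UMIs and at least 1 UMI of Cd3d, Cd3e or Cd3g.

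The study sequenced RNA of single cells from 5 mouse samples by a droplet method (10x Genomics, 5' end), in which each cell receives a barcode and each captured RNA molecule a UMI. All samples hold OT-II cells, CD4 T cells that carry a transgenic receptor for an ovalbumin (OVA) peptide on MHC class II and that were isolated by negative selection from naive OT-II spleen. In 4 samples they had been cultured overnight with antigen-presenting cancer-associated fibroblasts (apCAFs), which were sorted from mouse pancreatic tumors of 1 of the clones sKPC and rKPC. The groups are the sKPC coculture with OVA, the sKPC coculture with DMSO, the rKPC coculture with OVA, the rKPC coculture with DMSO, and the OT-II cells alone, with 1 sample each. Age and sex of the mice, and their strain beyond OT-II, are not stated in the labels.

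The tables are 2 separately aggregated matrices, G and H, whose barcodes end in 3 and 2 library suffixes. The labels tie 2 samples to matrix G and 3 to matrix H, so no suffix could be tied to a sample. The 5 libraries are named by matrix and suffix (G1, G2, G3, H1 and H2) and stand for no group. No contrast between groups was made, no value has a replicate, and no test was run. Each value below is a description of 1 library or of barcodes within it. The Cd3+ barcodes numbered 3081 to 6419 per library, with median UMI counts between 7928 and 8768. Each pair of libraries shared 1 to 12 barcode sequences. Of the Cd3+ barcodes outside the class defined below, 99.8% had a UMI of Trac, the alpha chain of the T cell receptor, 64.6% had one of Cd4 and 0.164% one of Cd8a. Few barcodes showed fibroblast markers. Without a Cd3 UMI, 3 barcodes had at least 5 UMIs of these markers. Of the Cd3+ barcodes outside the class, 0.327% had at least 2. The class held 2 barcodes rich in them, which are described further on.

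Type I interferons bind the receptor IFNAR1/IFNAR2, and the kinases JAK1 and TYK2 then start signaling. It leads to a complex with STAT2 and IRF9 that binds the interferon-stimulated response element in the promoters of target genes. IRF7, itself a target, drives further interferon production, while USP18 dampens the receptor and removes the ubiquitin-like ISG15 from proteins. T cells can show such a response at rest and after infection, and interferon gamma, made by activated T cells, induces an overlapping set of genes.

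The upstream stretches of those members whose promoter window holds the core of the response element are shown first. RefSeq promoter windows of GRCm38.p6 covering 250 bases before to 50 after the start were matched for 7 of the 9 genes, all except Usp18 and Ifi27l2a. Here and below, only matches that lie wholly in the 250 bases before the start were counted. The core GAAANNGAAA, read on either strand (TTTCNNTTTC on the other), was present in 5 of the 7 windows, against 3.46% of 27025 genes with a window. In Isg15 and Bst2 the matches overlap one another. The 250 bases before the start of Irf7 and of Oasl1 did not contain these letters. The 70-base stretches below lie at chr4:156200851-156200920 (minus strand), chr19:34640764-34640833 (plus), chr19:34583360-34583429 (plus), chr12:26456533-26456602 (minus) and chr8:71537560-71537629 (minus), in the order of the lines, all upstream of the start. They are printed 5' to 3' along the gene, with the matches in capitals.
Isg15: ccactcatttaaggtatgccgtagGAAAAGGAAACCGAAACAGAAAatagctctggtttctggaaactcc
Ifit1: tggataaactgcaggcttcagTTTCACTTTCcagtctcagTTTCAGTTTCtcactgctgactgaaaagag
Ifit3: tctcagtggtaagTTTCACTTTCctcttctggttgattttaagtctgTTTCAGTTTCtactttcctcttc
Rsad2: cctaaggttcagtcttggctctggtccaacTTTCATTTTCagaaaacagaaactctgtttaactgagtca
Bst2: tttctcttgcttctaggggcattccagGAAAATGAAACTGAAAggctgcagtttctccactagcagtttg

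Among other genes the same letters occurred in 24 of 60 matched windows of other type I interferon-stimulated genes, in 10 of 14 of genes known best from interferon gamma, in 0 of 6 of the T cell receptor (TCR) response list and in 0 of 9 of the naive-state list. The gamma-activated site TTCNNNGAA was found in 1 of the 7 members, Bst2, against 8.13% of genes. Where the data below show genes detected together, these letters are a shared feature and not a measured cause.

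In GENCODE M21 coordinates of GRCm38, Ifit3 (ENSMUSG00000074896, chr19:34583531-34588731, plus) and Ifit1 (ENSMUSG00000034459, chr19:34640871-34650009, plus) both lie in the Ifit cluster. The near-identical Ifit3b lies between them at chr19:34607970-34613401, so reads could be split between Ifit3 and Ifit3b in a way that the tables do not show. Irf7 (ENSMUSG00000025498, chr7:141262706-141266481, minus) overlaps Phrf1 on the other strand, Oasl1 (ENSMUSG00000041827, chr5:114923240-114937915, plus) overlaps Gm13822, and Usp18 (ENSMUSG00000030107, chr6:121245906-121270917, plus) overlaps Gm44148. The sources used here do not say whether counting used strand, so a small part of their UMIs could belong to the overlapping gene. No annotated gene overlaps Isg15 (ENSMUSG00000035692, chr4:156199424-156200818, minus), Rsad2 (ENSMUSG00000020641, chr12:26442746-26456452, minus), Bst2 (ENSMUSG00000046718, chr8:71534255-71537456, minus) or Ifi27l2a (ENSMUSG00000079017, chr12:103442167-103443680, minus).

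All 9 genes were detected in all 5 libraries, and 8 of the 9 differed by less than 2-fold between the highest and the lowest library. Levels are counts per 1000000 (CPM), the UMIs of a gene over all UMIs of the library's Cd3+ barcodes, with exact 95% Poisson intervals for levels and for counts of barcodes seen with several genes, and exact binomial ones for shares and for ratios of levels. All intervals cover counting error only.

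Isg15, the ubiquitin-like modifier, stood at 10.9 CPM in G1, 6.49 in G2, 9.71 in G3, 11.5 in H1 and 7.51 in H2. H1, G1 and G3 were high and G2 and H2 low, with a log2 ratio of 0.82 (0.56 to 1.09) between H1 and G2. A UMI of it was present in 4.77% to 7.71% of barcodes, depending on the library. Part of this order came from single barcodes. In all, 9 barcodes with 9 or more Isg15 UMIs held 188 of its 1945 UMIs, or 9.67%, and in G1 3 of them held 99 of 530. Without them Isg15 stood at 8.90 CPM in G1, 6.15 in G2, 9.13 in G3, 10.3 in H1 and 7.51 in H2, the same highest and lowest library.

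Usp18, the protease that takes ISG15 off its targets, stood at 13.6, 14.1, 13.7, 13.5 and 12.8 CPM in G1, G2, G3, H1 and H2. Its libraries could not be told apart by counting error, since the log2 ratio of G2 over H2 was 0.14 (−0.07 to 0.34). Over all libraries 9.21% of Cd3+ barcodes had a Usp18 UMI.

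The Ifit proteins bind viral RNA. Ifit1 stood at 6.38, 4.59, 7.01, 4.79 and 5.71 CPM in G1, G2, G3, H1 and H2. Ifit3 stood at 7.76, 6.06, 8.44, 6.67 and 7.51 CPM in the same libraries. Both had the order G3, G1, H2, H1, G2 from high to low, with log2 ratios of highest over lowest of 0.61 (0.31 to 0.92) for Ifit1 and 0.47 (0.22 to 0.75) for Ifit3. Each library's interval overlapped that of its neighbor in the order in 4 of 4 steps for both genes.

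Irf7, the transcription factor, stood at 9.98, 8.75, 9.93, 10.8 and 10.5 CPM in G1, G2, G3, H1 and H2, with H1 highest and G2 lowest and a log2 ratio of 0.30 (0.06 to 0.54). Oasl1, an OAS-like protein that in mice limits translation of Irf7 mRNA, stood at 5.39, 5.52, 5.97, 5.45 and 5.57 CPM. Its interval of the ratio of G3 over G1 (log2 0.15, −0.09 to 0.38) included 0, as for Usp18.

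Rsad2 encodes viperin, an antiviral enzyme, and stood at 2.18, 1.13, 1.84, 1.79 and 1.06 CPM in G1, G2, G3, H1 and H2, from 29 to 109 UMIs per library. It was the 1 gene of the 9 at 2-fold or more between libraries, with a log2 ratio of 1.03 (0.48 to 1.63) for G1 over H2. Of all 14758 genes with at least 100 UMIs, 13.8% passed 2-fold between libraries, so 1 of 9 is near the background. Leaving out 32 barcodes rich in erythroid or fibroblast markers, which are described further on, brought the ratio to 0.73.

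Bst2 encodes tetherin, which holds budding virions at the cell surface and is present on resting lymphocytes. It stood at 43.2, 37.7, 43.2, 38.3 and 39.0 CPM in G1, G2, G3, H1 and H2, and 28.4% of barcodes had a UMI of it. Ifi27l2a, an interferon-inducible gene of the Ifi27 family, stood at 188, 137, 192, 174 and 164 CPM, with a UMI in 58.3% of barcodes. G1 and G3 were high and G2 low for both genes, with log2 ratios of G3 over G2 of 0.20 (0.09 to 0.30) for Bst2 and 0.49 (0.43 to 0.54) for Ifi27l2a.

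G2 was the lowest library for 6 of the 9 genes. The sum of the 9 genes stood at 288, 221, 292, 267 and 253 CPM in G1, G2, G3, H1 and H2, a log2 ratio of 0.40 (0.36 to 0.44) for G3 over G2. Without G2 the ratio between the highest and the lowest library was 0.21. The order differed between genes, and of the 9 Ifi27l2a had the order of the sum, as the plot of levels by library shows. Ifi27l2a supplied 35946 of the 55283 UMIs of the sum, so the sum largely follows this gene. The sum of the 7 genes other than Bst2 and Ifi27l2a had a smaller log2 ratio of G3 over G2, 0.28.

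**Figure D1:**
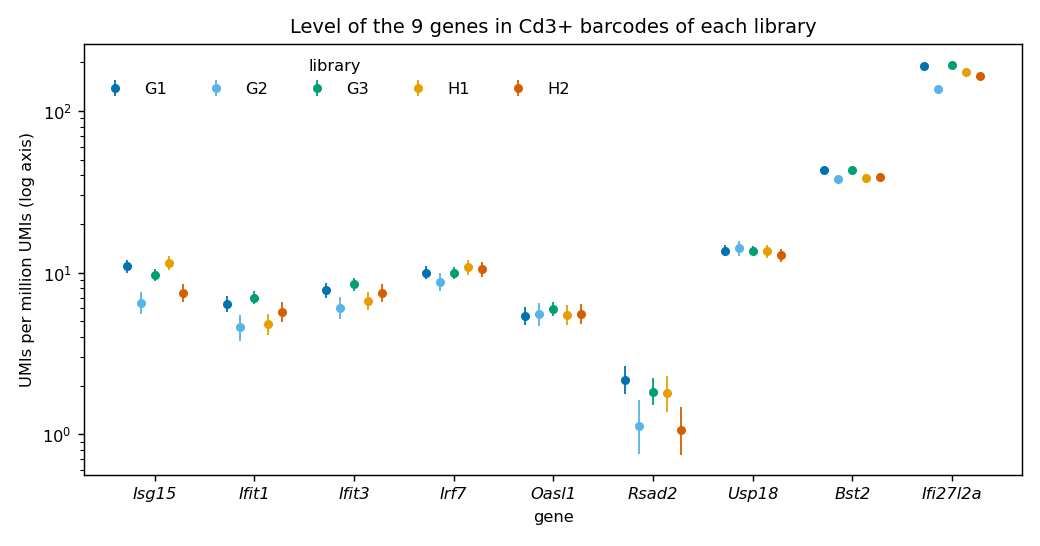
Level of each of the 9 genes in the Cd3+ barcodes of the 5 libraries, in CPM on a log axis, with exact 95% Poisson intervals as bars. The points of Usp18, Irf7 and Oasl1 lie close together, those of Isg15 and Rsad2 are spread, and Ifi27l2a is lowest in G2 at 137 CPM.

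Whether a small share of cells carries the signal was asked with the 7 genes other than Bst2 and Ifi27l2a, which are kept as genes held out. The picture was mixed in every library and limited by depth. Most of the UMIs lay in barcodes with a single detected gene, which few UMIs per barcode would give as well. A small class, with 3 or more of the 7 genes, had more barcodes than the genes' separate shares give when multiplied. It also held more of the UMIs than its size, but its rule fixes this, since each of its barcodes has at least 3.

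The class had 68 barcodes in G1, 26 in G2, 89 in G3, 45 in H1 and 25 in H2, that is 253 of 22874 Cd3+ barcodes or 1.11% (0.975 to 1.25). By library it made up 1.30%, 0.844%, 1.39%, 1.07% and 0.635% of the barcodes. It held 12.3%, 8.58%, 12.4%, 12.4% and 7.15% of the UMIs of the 7 genes, and 11.1% over all libraries. No barcode sequence of the class was shared between libraries.

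Most of these UMIs lay outside the class. Barcodes with 1 of the 7 genes held 61.6% of the UMIs and those with 2 genes held 27.3%. The genes' separate shares, when multiplied, give 6335 barcodes with 1 gene, where 5625 were seen. At this depth a cell with RNA of several of the genes can show 1 UMI or none. These shares therefore cannot tell how many cells carry the signal. Barcodes whose only UMI of the 7 genes was a single one held 43.4% over all libraries, 38.9% in G1 and 49.0% in H2. A UMI of at least 1 of the 7 genes was seen in 30.9% of barcodes, from 26.5% in G2 to 32.7% in G3. The 1% of barcodes with the most UMIs of the 7 genes held 13.1% of them, and it took 8.46% of the barcodes to reach 50% of them.

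The class was larger in every library than the product of the 7 genes' separate shares. The product gives 104 barcodes over all libraries, so that the 253 observed were 2.43 times it (2.14 to 2.74). The ratio was 2.55 in G1, 3.16 in G2, 2.44 in G3, 2.47 in H1 and 1.70 in H2, with the lower end of each interval above 1. Barcodes with 2 or more of the 7 genes numbered 1439 against 1188, a ratio of 1.21 (1.15 to 1.28). Those with 4 or more numbered 48 against 5.33, and those with 5 or more 14 against 0.155, so the excess over the product grew with the number of genes.

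Cells with more UMIs show more of all genes, and class barcodes were deeper, with a median of 9737 UMIs against 8383 in the other Cd3+ barcodes. The counts were therefore repeated after thinning every barcode to 5000 UMIs, which left out 1663 shallower barcodes. The class then had 71 of 21211 barcodes against 26.8 by the product, a ratio of 2.65 (2.07 to 3.35), with ratios between 2.19 in H1 and 4.19 in G2. Thinned to 1500 UMIs, 3 class barcodes were left against 1.04, too few to read, and 73 barcodes with 2 or more genes stood against 57.6, a ratio of 1.27 (0.993 to 1.59).

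**Figure D2:**
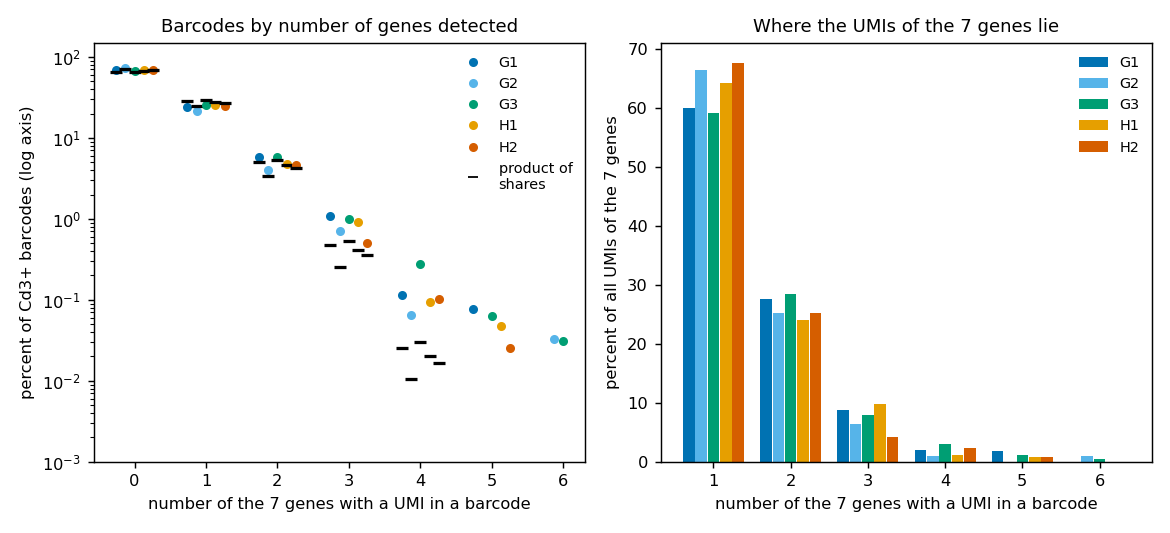
Left, percent of Cd3+ barcodes (log axis) with 0 to 6 of the 7 genes detected in each library, with black dashes at the product of the genes' separate shares (those under 0.001% are not drawn). Right, percent of the UMIs of the 7 genes in barcodes with 1 to 6 of them, both without the 32 barcodes rich in erythroid or fibroblast markers. The points lie above the dashes at 3 genes in every library, while most UMIs lie in barcodes with 1 gene.

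Single pairs showed the same. All 21 pairs of the 7 genes were seen together in more barcodes than the product of their shares, with the interval above 1 for 16 pairs and a median ratio of 1.51. The highest was Ifit1 with Ifit3, seen together in 123 barcodes against 52.7, a ratio of 2.33 (1.94 to 2.78), with 28 of these barcodes in G1, 15 in G2, 53 in G3, 17 in H1 and 10 in H2. This pair was above 1 in 5 of 5 libraries, although its genes also lie in the same genomic cluster. Ifit3 and Irf7 shared 179 barcodes against 102, a ratio of 1.75, and Ifit3 and Usp18 shared 190 against 117, a ratio of 1.62, with genes on different chromosomes in both. Oasl1 with Rsad2 was the lowest, at 10 barcodes against 9.64.

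The 15 pairs with Bst2 or Ifi27l2a were also all above 1, with a median of 1.19 and a range of 1.08 to 1.36. Thinned to 5000 UMIs, 19 of the 21 pairs of the 7 genes were above 1, 13 with the interval above 1, and the median was 1.52. Of the 15 pairs with Bst2 or Ifi27l2a, 14 were then above 1, 8 with the interval above 1. Their median was 1.13 and the lowest 0.92. Ifit1 with Ifit3 then stood at 2.32. Isg15 with Rsad2, at 2.07 in all Cd3+ barcodes, stood at 1.66 without the barcodes rich in erythroid or fibroblast markers.

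**Figure D3:**
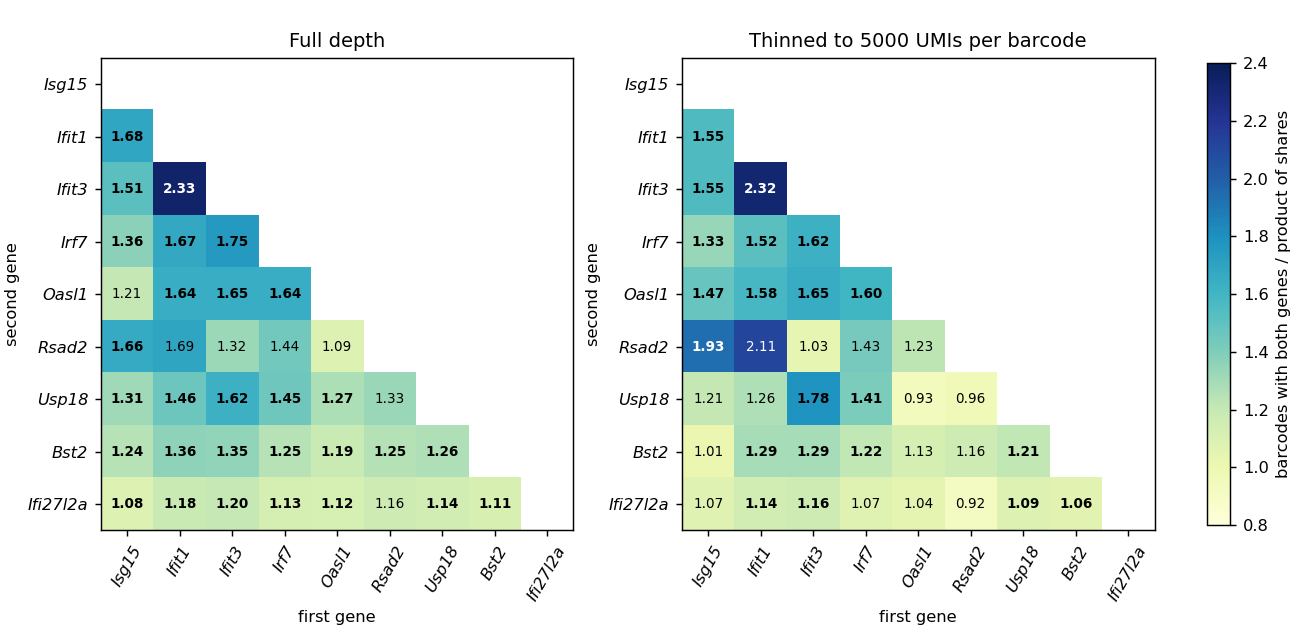
Barcodes with a UMI of both genes over the product of the 2 genes' shares for all 36 pairs of the 9 genes, at full depth without barcodes rich in erythroid or fibroblast markers (left) and in all Cd3+ barcodes thinned to 5000 UMIs (right). Bold numbers have a 95% interval above 1, and Ifit1 with Ifit3 is the darkest cell in both panels, at 2.33 and 2.32.

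A gene that helps to choose the class must be high in it, so each of the 7 genes was also read in barcodes with 2 or more of the other 6. Each was then seen more often inside than outside over all libraries. Isg15 was seen in 13% of barcodes inside and 6.54% outside, Ifit1 in 9.64% and 3.78%, and Ifit3 in 13.7% and 5.15%. Irf7 was seen in 16.9% inside and 7.63% outside, Oasl1 in 7.06% and 3.59%, Rsad2 in 1.98% and 1.06%, and Usp18 in 17.2% and 8.87%. The log2 ratios of CPM, which remove most of the depth difference, ran from 0.60 for Rsad2 (0.07 to 1.09) to 1.49 for Ifit1 (1.26 to 1.71).

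By library, Ifit1 had log2 ratios of 1.53 in G1, 2.16 in G2, 1.21 in G3, 1.35 in H1 and 1.60 in H2, with all 5 intervals above 0. Isg15 had 0.82, 0.78, 0.85, 1.99 and −0.20, where the value of H2 rests on 10 UMIs inside. In H1, 45 of the 75 Isg15 UMIs inside lay in 2 barcodes. The larger count, 34, was in a barcode with 44 UMIs of dendritic markers and 6 of Cd3 genes. Oasl1 ran from −0.03 in G2 to 1.26 in H1, and Rsad2, with 1 to 12 positive barcodes inside per library, from −0.21 in H2 to 1.27 in H1. Without barcodes rich in erythroid or fibroblast markers Rsad2 stood at −0.03 in H1 (−1.95 to 1.41), and its pooled ratio was 0.53 (−0.07 to 1.09), with 0 in the interval. The barcodes with 2 or more other genes held between 8.79% (Usp18) and 16.3% (Ifit1) of a gene's UMIs, so for each gene most UMIs lay outside them.

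The genes held out followed in part. Bst2 had a UMI in 51.4% of class barcodes (45 to 57.7) and in 28.1% of the others, at 54.5 and 40.7 CPM. It was higher in the class in 5 of 5 libraries, with log2 ratios of CPM of 0.55, 0.51, 0.35, 0.19 and 0.52 in G1, G2, G3, H1 and H2. The intervals of G2, H1 and H2 included 0. Ifi27l2a had a UMI in 79.8% of class barcodes and in 58.1% of the others, at 232 and 175 CPM.

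Ifi27l2a differed between libraries, with log2 ratios of CPM of 1.0 in G1, −0.31 in G2, −0.20 in G3, 0.74 in H1 and 0.48 in H2. The class of G2 and that of G3 each hold 1 barcode of very many UMIs and fibroblast markers. Without the 4 class barcodes rich in erythroid or fibroblast markers the ratios were 1.01, 0.43, 0.04, 0.83 and 0.48, so the values of G2 and G3 turned on 1 barcode each.

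The 14 barcodes with 5 or 6 of the 7 genes were 0.0612% of the Cd3+ barcodes and held 1.26% of the UMIs of the 7 genes. They were in every library, with 4 in G1, 1 in G2, 6 in G3, 2 in H1 and 1 in H2, and none was rich in erythroid or fibroblast markers. That rule does not cover other cell types. In G1, 1 of them, with 67506 UMIs, had 9 UMIs of dendritic markers and held 23 of the 138 UMIs of the 7 genes. All 14 had an Isg15 UMI, 13 had Irf7, 11 each had Ifit1, Ifit3 and Usp18, 9 had Oasl1 and 4 had Rsad2. Of the genes that did not choose them, Bst2 was present in 7 and Ifi27l2a in 12. The barcode of G2 had 6 genes among 8626 UMIs, with 5 UMIs of Ifit1, 2 of Ifit3 and 2 of Usp18.

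The other type I interferon-stimulated genes, a list of 76 symbols such as Ifit2, Oas3, Oasl2 and Rtp4, summed to a median of 6773 CPM in these 14 barcodes, against 4361 CPM in the rest, and 12 of the 14 were above that median. They were deep, with a median of 15793 total UMIs and a range of 5621 to 67506. Their depth was not matched to the rest, and 3 of the 14 were among the TCR responders described below.

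The class was next compared with the other Cd3+ barcodes over all genes. Of 14749 other genes with at least 100 UMIs, 167 (1.13%) were at 2-fold or more in the class in every library. Of the 167, 133 had no class UMI in at least 1 library and passed there through the 0.5 added to each count, so 34 had class UMIs in all 5. Of the genes higher in the class in 5 of 5 libraries, the 20 with the largest pooled ratio were Dkk2, Ankrd1, Sorbs2, Ptgs2, Dynap, Ccn1, Ccbe1, Cxcl9, Nes, Nid1, Htr7, Col8a1, Spry4, Col4a1, Bmp2, Tinagl1, Pcdh9, Ndst3, Rhox5 and Grem1. Several encode matrix or stromal proteins, and 5279 of their 5590 class UMIs lay in 2 barcodes, 1 of G2 with 186012 UMIs and 77 UMIs of fibroblast markers and 1 of G3 with 237972 and 96. Each of the 20 was at 0 in the class of at least 1 library, and this ranking mostly describes those 2 barcodes. The 187 class UMIs of Cxcl9 were all in 1 further barcode. Htr7 had 111 class UMIs in 5 barcodes, 65 of them in 1. Its log2 ratio was 6.90, and 7.09 without the barcodes rich in erythroid or fibroblast markers.

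The lists were therefore read without the barcodes rich in erythroid or fibroblast markers, which left 249 class and 22593 other barcodes. Of 14749 genes, 5.91% were then at 2-fold or more with the libraries pooled, and the median log2 ratio over all genes was −0.01. Of the 68 measured genes on the list of other type I interferon-stimulated genes, 21 were at 2-fold or more, 67 were higher in the class and none was at or below 0.5 times the others' level, with a median of 0.67. In 30 of them the class was higher in 5 of 5 libraries. The class was chosen by 7 genes of the same kind, so the list is read beside the all-gene values and not as independent support.

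Of the list's 5 genes with the most UMIs, Epsti1 stood at 1182 CPM in the class and 802 outside (log2 0.56) and Nlrc5, a transactivator of MHC class I genes, at 364 and 218 (0.74). Psmb8, an immunoproteasome subunit, had 0.35, Sp100 0.10 and Slfn1 0.04. Larger ratios, picked out after the values were seen, were those of Rtp4 at 51.4 and 16.3 CPM (1.66), of the OAS-like Oasl2 at 66.0 and 24.8 (1.41) and of the RNA sensor Ifih1 at 49.6 and 21 (1.24). Sp100 and Slfn1 were thus close to even, and Nlrc5 lay near the list's median.

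Of the receptors and signal transducers, 2 of 18 were at 2-fold or more and 15 were higher, with a median of 0.36. Stat2 stood at 80.3 CPM in the class and 41.1 outside (0.97), while Jak1 was at 913 and 891 (0.04). Among the 20 genes known best from interferon gamma, 11 were at 2-fold or more and all 20 were higher with the libraries pooled, with a median of 1.15. In 8 of them the class was higher in 5 of 5 libraries. This list was highest in G1 and G3, which also had the largest class shares, and the pooled ratios were not adjusted for library. Iigp1, an immunity-related GTPase, stood at 525 CPM in the class and 196 outside (1.42), but was higher in 3 of 5 libraries. The transcription factor gene Irf1 stood at 263 and 176 (0.58), higher in 4 of 5. Gbp2, a guanylate-binding protein, stood at 366 and 96.4 CPM (1.92) and Gbp5 at 143 and 34.9 (2.04), both higher in 5 of 5. Of 12 naive-state genes, none was at 2-fold and 3 were higher, with a median of −0.13.

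The TCR-response list of 8 genes had a median of 0.96 in the class, and this value turned on 8 class barcodes with 2 or more UMIs of dendritic markers. Without them the median was −0.74, with 0 genes at 2-fold and 3 at or below 0.5 times the others' level. The list of other type I interferon-stimulated genes kept a median of 0.68 (18 of 68 at 2-fold, 65 higher) and the gamma list 1.10, beside 4.77% of all genes at 2-fold. Ifitm3 went to the other side, with 2.22 in the class including these barcodes and −0.45 without them.

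A ranking by how many class barcodes had a UMI, added after the values were seen, is less open to single barcodes. Over 9468 genes seen in at least 15 class barcodes the median log2 ratio of shares was 0.32, since class barcodes were deeper. Ifit3b, the near copy of Ifit3, ranked first, with a UMI in 9.64% of class and 1.58% of other barcodes, higher in 5 of 5 libraries. Ifit3 helps to choose the class and reads could be split between it and Ifit3b, so this rank could be tied to the class rule. Of the next, Gbp10 was at 8.84% and 1.49% and Cxcl10, a chemokine induced by interferons, at 10.4% and 2.06%, each higher in 3 of 5 libraries. Higher in 5 of 5 were the RNA sensor Tlr7 at 6.83% and 1.63% and Ube2l6, the enzyme that conjugates ISG15, at 6.83% and 1.88%. Oas3 was at 8.84% and 2.46% (4 of 5) and Gbp5 at 40.2% and 13.5% (5 of 5). Among the 20 were also genes on none of the interferon lists, such as Tldc2, Gm47861 and Arhgef5, the last at 6.43% and 1.78%. Others were Cd86, the T-box factor Eomes at 7.63% and 2.30%, and Foxp3, the factor of regulatory T cells, at 6.02% and 1.99%.

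Markers of other cell types differed between the class and the rest in all Cd3+ barcodes. Summed plasmacytoid dendritic markers stood at 313 CPM in the class and 191 outside, other dendritic markers at 55.6 and 7.44, fibroblast markers at 48.3 and 8.87, NK markers at 44.2 and 25.5, and macrophage and monocyte markers at 8.90 and 77.6. Erythroid markers stood at 2931 and 1107 CPM with the libraries pooled, but were lower in the class in G1 (629 and 1456), G2 (79.7 and 825), G3 (39.2 and 1320) and H2 (55.9 and 1132), and higher in H1 (16501 and 472). In H1, 1 class barcode of 45722 UMIs had 22.3% erythroid-marker UMIs. B cell markers stood at 252 and 184 CPM pooled, lower in the class in G2 (142 and 169) and G3 (110 and 192) and highest in it in H1 (721 and 209). Within T cells, 70.8% of class and 64.6% of other barcodes had a Cd4 UMI, 31.2% and 20.3% a Trdc UMI, and 14.6% and 5.92% a Ly6c2 UMI. Class barcodes were deeper, and by CPM Cd4 was lower in the class, at 166 and 199 pooled and lower in each library. Trdc encodes the constant part of the delta chain of the gamma-delta T cell receptor, and it stood at 139 and 99.2 CPM. It was higher in the class in G1, G3 and H1 and lower in G2 (55.4 and 104) and H2 (27.9 and 119). Ly6c2 stood at 49.1 and 32.7 CPM pooled, higher in the class in G1 and H1 and lower in G2, G3 and H2. Cd8a was seen in 0 of 253 class barcodes, which allows up to 1.19%, and in 0.164% of the others. The part of these markers in the class was not tested.

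The genes also varied with the kind of T cell marker seen in a barcode, and differently from one another. Ifi27l2a was higher in Cd4+ barcodes than in those without a Cd4 UMI (201 and 128 CPM), in 5 of 5 libraries with log2 ratios of 0.66 to 0.74. It was also higher in Foxp3+ barcodes (301 and 173 CPM, 5 of 5) and lower in Ly6c2+ barcodes (116 and 182 CPM, 5 of 5). Ifit3 ran the other way, at 10.9 CPM in Trdc+ and 6.47 in Trdc− barcodes and at 13.6 in Ly6c2+ and 6.99 in the others, higher in 5 of 5 libraries for both. Usp18 stood at 17.7 and 12.3 CPM for Trdc and 19.4 and 13 for Ly6c2, again in 5 of 5. Barcodes with these UMIs were deeper, for example a median of 9362 UMIs in Trdc+ and 8188 in Trdc− barcodes, and CPM divides by depth.

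TCR responders, Cd3+ barcodes with 2 or more of 8 genes (the immediate-early factors Egr1 to Egr3 and Nr4a1 to Nr4a3, with Irf4 and Il2ra), made up 19.8% of G1 and 17.5% of G3, and 1.23%, 1.24% and 0.711% of G2, H1 and H2. In G1 and G3, which had 1038 and 1121 responders, most of the 9 genes stood lower in them than in the other Cd3+ barcodes of the same library. The exception was Isg15.

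In G1, Ifit1 stood at 1.74 CPM in responders and 7.92 in the other barcodes, a log2 ratio of −2.19, and Irf7 at 2.81 and 12.4 (−2.14). Ifit3 stood at 2.48 and 9.51 (−1.94), Oasl1 at 2.23 and 6.44 (−1.53), Usp18 at 5.87 and 16.2 (−1.47) and Rsad2 at 1.41 and 2.44 (−0.80). Bst2 stood at 30.8 and 47.3 CPM (−0.62) and Ifi27l2a at 131 and 207 (−0.66). The sum of the 7 genes was 29.6 CPM in responders and 65.1 in the others (−1.14).

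In G3 these genes were lower in responders as well. Ifit1 stood at 2.76 CPM in responders and 8.29 in the others (−1.59), Ifit3 at 2.84 and 10.1 (−1.84), Irf7 at 4.36 and 11.6 (−1.41), Oasl1 at 1.45 and 7.33 (−2.33), Rsad2 at 0.873 and 2.13 (−1.29) and Usp18 at 5.09 and 16.3 (−1.68). Bst2 stood at 31.1 and 46.9 (−0.59) and Ifi27l2a at 134 and 210 (−0.64). The sum of the 7 genes was 27.0 and 65.5 CPM (−1.28).

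Isg15 stood at 13.1 CPM in responders and 10.2 in the others of G1 (0.36) and at 9.60 and 9.74 in G3 (−0.02). Of the 9 barcodes with 9 or more Isg15 UMIs, 7 were responders. Without these barcodes Isg15 stood at 8.79 and 8.94 CPM in G1 (−0.03, −0.36 to 0.30) and at 8.10 and 9.44 in G3 (−0.22, −0.54 to 0.08). Isg15 was thus near even, while Ifit1, Ifit3, Irf7, Oasl1 and Usp18 were lower. Rsad2 was lower too, but erythroid-marker barcodes, described further on, held 25 of its 106 UMIs in G1 and 22 of 109 in G3. Erythroid markers in G1 stood at 45.1 CPM in responders and 1905 in the others. Their part in the Rsad2 ratio was not tested.

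At or below 0.5 times the level of the other barcodes were 5 of the 9 genes in G1, where 12.7% of 11460 genes were, and 6 of 9 in G3, where 9.78% of 12009 genes were. The list of other type I interferon-stimulated genes had 37 of 61 and 35 of 63 at or below that level, with medians of −1.18 and −1.05. Epsti1 stood at 135 CPM in responders and 807 in the others of G1 (−2.58) and Ifit2 at 22.1 and 80.8 (−1.87). The gamma list had 14 of 19 in each library and the naive-state list 8 of 12 in each, so the lower level was shared with genes outside the interferon lists. Responders had more UMIs, with medians of 10733 and 8444 in G1 and 10393 and 8226 in G3, so CPM there divides by more RNA.

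In the receptors and transducers, 7 of 18 were at or below 0.5 times in G1 and 5 of 18 in G3. Ifngr1, a chain of the interferon gamma receptor, stood at 183 CPM in responders and 695 in the others of G1 (−1.93). Ifnar1 was at 52.3 and 77.4 (−0.56), and the kinase gene Jak2 was higher, at 363 and 111 (1.70). Jak2 also stood at 356 and 116 CPM in G3 (1.62).

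Markers of other cells differed here too. In G1, B cell markers stood at 93.4 CPM in responders and 171 in the others, dendritic markers at 16.3 and 6.14, gamma-delta markers at 42.7 and 147, macrophage and monocyte markers at 97.9 and 62.1, and erythroid markers at 45.1 and 1905. In G3, B cell markers stood at 97.5 CPM in responders and 218 in the others, dendritic markers at 25.7 and 5.16, gamma-delta markers at 41.7 and 128, macrophage and monocyte markers at 58.0 and 83.8, and erythroid markers at 952 and 1389. The macrophage and monocyte markers thus ran opposite ways in G1 and G3. Their part in the result was not tested. In Cd4+ Trdc− barcodes, without those rich in erythroid or fibroblast markers, the sum of the 7 genes stood at 35.3 CPM in responders and 57.7 in the others of G1 (−0.71) and at 31.4 and 65.3 in G3 (−1.06), so it was lower within that kind of barcode as well. Rsad2 was the exception in G1, at 2.28 and 1.14 CPM (1.0, −0.24 to 2.13).

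G2, H1 and H2 had 38, 52 and 28 responders, and H1 did not follow G1 and G3. Its responders had 170 CPM of the 7 genes in 123 UMIs, 45 of them Isg15 UMIs of 2 barcodes. One of these had 34 Isg15 UMIs, 44 UMIs of dendritic markers and 6 of Cd3 genes. Without both barcodes the responders of H1 stood at 95.8 CPM and the others at 52.1 (0.88, 0.50 to 1.23), with Usp18 at 33.9 and 13.2 CPM and Ifit1 at 1 UMI. The difference between these libraries was not tested.

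**Figure D4:**
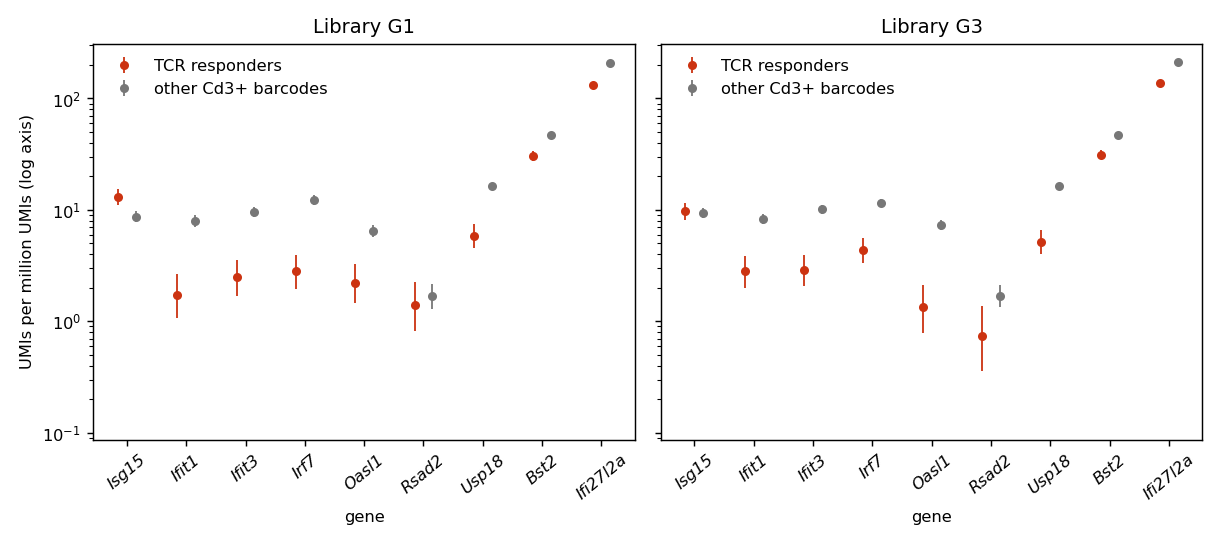
Level of each gene in TCR responders (red, left of each pair) and in the other Cd3+ barcodes (grey) of libraries G1 and G3, in CPM on a log axis with exact 95% Poisson intervals, without barcodes rich in erythroid or fibroblast markers. Responders lie below the others for Ifit1, Ifit3, Irf7, Oasl1, Usp18, Bst2 and Ifi27l2a in both libraries, while Isg15 does not.

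Outside the responders the libraries were ordered more clearly. Without responders and without barcodes rich in erythroid or fibroblast markers, the sum of the 7 genes stood at 62.9 CPM in G1, 47.2 in G2, 64.9 in G3, 52.2 in H1 and 50.5 in H2. The intervals of G1 (60.3 to 65.5) and G3 (62.5 to 67.2) lay above those of the other libraries, the highest of which reached 54.6 in H1. Ifit1 then stood at 7.95, 4.74, 8.31, 4.72 and 5.66 CPM in G1, G2, G3, H1 and H2. Ifi27l2a stood at 208, 142, 210, 174 and 165 CPM.

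The same held in barcodes with no UMI of any of the 8 TCR-response genes, where the 7 genes summed to 63.5, 47.7, 65.6, 52.0 and 50.7 CPM. In Cd4+ Trdc− barcodes outside the responders they summed to 57.7, 45.3, 65.3, 47.5 and 48.6 CPM. G1 and G3 were thus also the high libraries among barcodes without TCR-response UMIs.

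The gamma list showed a larger spread over libraries than the 9 genes. It summed to 2395 CPM in G1, 908 in G2, 2775 in G3, 828 in H1 and 921 in H2 outside the responders. In all Cd3+ barcodes 18 of its 20 genes passed 2-fold between libraries, with a median log2 span of 1.53 against 0.39 over all genes. Iigp1 stood at 270, 77.2, 356, 59.8 and 73.6 CPM. Cd274, the ligand PD-L1, stood at 135, 32.3, 158, 32.2 and 30.9 CPM.

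The list of other type I interferon-stimulated genes had 8 of 68 past 2-fold, with a median span of 0.38, and the 9 genes had a median of 0.47. The list's summed level in all Cd3+ barcodes was 4298, 4471, 4518, 4555 and 4604 CPM in G1, G2, G3, H1 and H2. Outside the responders it was 5075, 4579, 5212, 4567 and 4616 CPM, with G3 and G1 highest, as for the gamma list. Single members differed in all Cd3+ barcodes, with Nlrc5 at 243, 164, 288, 162 and 169 CPM and high in G1 and G3, and Epsti1, the most abundant, at 640, 965, 707, 930 and 946 CPM and low in them. Among the receptors, Ifnar1 and Ifnar2 stood between 62.1 and 71.2 CPM and between 85.7 and 97.4 CPM.

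Interferon genes themselves were nearly silent in these tables. Over all 25623 barcodes, Ifng had 230 UMIs in 126 barcodes, Ifnk 40, Ifnz 36 and Ifnab 3. The other 17 of 21 ligand genes, Ifnb1 and 13 Ifna genes among them, had no UMI, which allows a share of barcodes with a UMI of up to 0.0117%.

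Isg15 and Rsad2 were also high in barcodes that were not T cells by their markers. Erythroid-marker barcodes, those with at least 10% of UMIs from hemoglobin and other red cell genes, numbered 176, of which 24 had a Cd3 UMI and so passed as Cd3+. Isg15 stood at 342 CPM in the erythroid-marker barcodes of G1, 813 in G2, 106 in G3, 163 in H1 and 123 in H2. In the other Cd3+ barcodes it stood at 9.84, 6.42, 9.46, 11.4 and 7.43 CPM. The erythroid-marker barcodes were thus above the others in every library.

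Rsad2 stood at 246, 266, 159, 135 and 113 CPM in the erythroid-marker barcodes of G1, G2, G3, H1 and H2, against 1.67, 1.05, 1.47, 1.63 and 0.973 CPM in the other Cd3+ barcodes. Isg15 was seen in 42.0% and Rsad2 in 36.4% of the 176 barcodes, and both in 39 against 26.9 by the product of shares. The top single barcode held 114 of the 478 Isg15 UMIs. Their median depth was 8800 UMIs, close to that of Cd3+ barcodes.

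The other members did not follow Isg15 and Rsad2 to that degree. Ifit1, Ifit3 and Oasl1 had no UMI in the 176 barcodes, which allows up to 1.70% of barcodes, against 4.08%, 5.55% and 3.77% of the other Cd3+ barcodes. Usp18 had 2 UMIs, Bst2 4 and Ifi27l2a 14 (8.74 CPM, against 177 CPM in the other Cd3+ barcodes). Irf7 stood at 15 CPM from 24 UMIs, against 10.0 CPM. The 0 of 176 was seen at a depth like that of the Cd3+ barcodes, but in barcodes with markers of another cell type. A background of stray RNA was not measured. Among the Cd3+ barcodes, by comparison, each of the 21 pairs of the 7 genes was seen together, and no barcode held all 7.

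The 24 erythroid-marker barcodes that passed as Cd3+ held 10.0% of the Isg15 UMIs of G1 and 4.01% over all libraries. For Rsad2 they held 23.6% in G1, 20.2% in G3 and 16.8% over all libraries. Those with no Cd3 UMI, 152 barcodes, had 318 CPM of Isg15 and 188 CPM of Rsad2, so the levels did not depend on the barcodes with both kinds of marker.

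**Figure D5:**
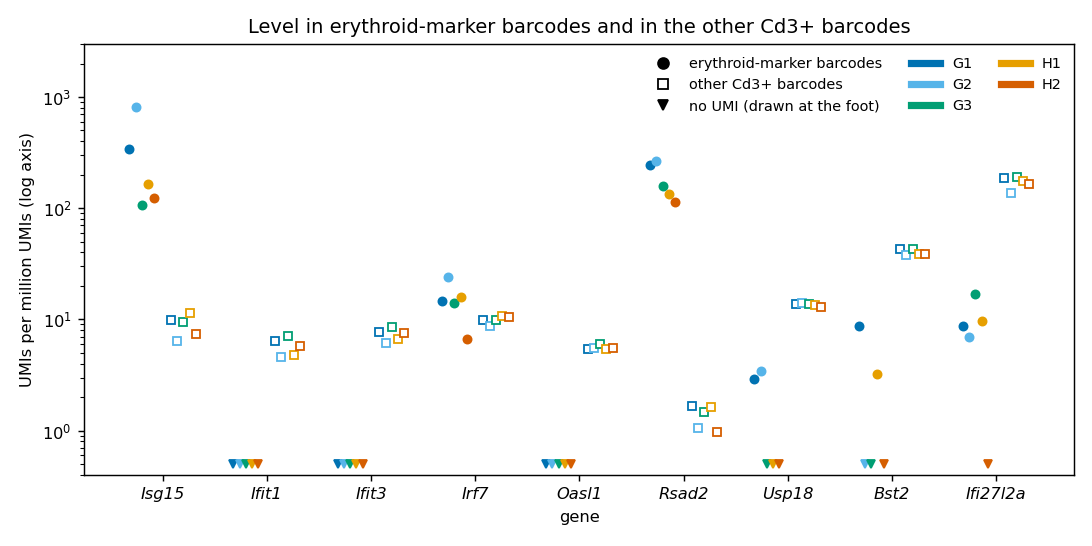
Level of each of the 9 genes in erythroid-marker barcodes (filled circles, left of each pair of groups) and in the other Cd3+ barcodes (open squares) of the 5 libraries, in CPM on a log axis, with triangles at the foot where no UMI was seen. Isg15 and Rsad2 lie above 100 CPM in the erythroid-marker barcodes of all 5 libraries, while Ifit1, Ifit3 and Oasl1 have no UMI there.

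Barcodes without a Cd3 UMI and with at least 5 UMIs of the markers of 1 other cell type were few, 53 for B cells, 45 for macrophages and monocytes, 37 for NK cells, 30 for neutrophils and 15 for dendritic cells. Bst2 stood at 95.7, 116, 91.0, 74.9 and 225 CPM in these 5 classes in that order. In the NK class 1 barcode held 19 of the 40 Bst2 UMIs. The same top count of 19 occurred in the B, macrophage and monocyte, and dendritic classes. Whether these classes share barcodes was not examined, so their values may not be separate. Ifi27l2a stood at 65.3 CPM in the B and 2.28 CPM in the NK class. Ifit3 had no UMI in any of the 5, but in the largest of them a count of 0 allows up to 5.66% of barcodes, which is not below the 5.55% of Cd3+ barcodes. The library of a barcode was not separated in these small classes.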

How the data were processed

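The deposited values are UMI counts, in 2 separately aggregated matrices of genes by barcodes that the authors made with Cell Ranger and mm10 per the submitters' processing notes, which give version 6.0.0, while the matrix headers name 7.1.0. Whether aggregation equalized depth, or intronic reads counted, is not stated in those sources. Barcodes needed at least 500 UMIs, at most 10% mitochondrial UMIs and 1 UMI of a Cd3 gene, and no doublet caller was run (an alternative leaves out the 6% of barcodes with the most UMIs). Each gene's level is its UMIs over all UMIs of the barcodes, as counts per 1000000, with exact Poisson intervals for levels, exact conditional binomial intervals for ratios of levels and Clopper-Pearson intervals for shares, all at 95%. Co-detection was set against the product of the genes' shares, summed over libraries. Ratios over all genes used 0.5 added to each count and genes with at least 100 UMIs. The scripts (Python 3.11.15, numpy 2.4.6, scipy 1.17.1, pandas 2.3.3, matplotlib 3.10.9) were tested on simulated data. Barcodes rich in erythroid or fibroblast markers are those with at least 1% of UMIs from erythroid or 10 UMIs from fibroblast markers (32 of 22874).

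The genes named in the comparison of the class with other barcodes are the 20 with the largest pooled ratio among those higher in the class in 5 of 5 libraries, and within each list the 5 with the most UMIs. Other named genes, the removal of the 32 barcodes, the thinning to 5000 UMIs, the ranking by detection and the comparison outside the responders were chosen after the values were seen. The 9 genes and the lists were chosen with earlier results of these data known. The values of 1 listed gene are not reported here.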

Additional observations from a re-analysis of the deposited data

How the results depend on the processing

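No paired analysis was possible because no library could be tied to a labelled sample and no test was run. Of the values of single genes and single libraries under alternatives, 244 moved by less than their intervals, 79 by more, and 9 changed sign or reached 0, and the cause was not tested. The class share of 1.11% of Cd3+ barcodes and its 11.1% of the UMIs of the 7 genes stood at 0.874% and 8.85% without the 6% of barcodes with the most UMIs, at 0.840% and 9.84% without barcodes with 2 or more UMIs of another type's markers, at 0.335% and 5.21% thinned to 5000 UMIs, and at 0.014% and 0.536% thinned to 1500 UMIs, where both were 0 in G1, G2 and G3. With 2 or more of the 7 genes they were 6.29% and 38.4%, with 4 or more 0.210% and 3.32%, and with 4 or more of all 9 genes 2.53% and 18.1%. Leaving out 1 library at a time gave 0.997% to 1.20% and 10.6% to 11.9%. The log2 span of the summed 9 genes, 0.40, was 0.49 without the deepest 6%, 0.46 and 0.53 thinned to 5000 and 1500 UMIs, 0.28 for the 7 genes and 0.21 without G2. The 167 genes at 2-fold or more in every library were 1064 at a minimum of 30 UMIs, 22 at 500, 585 with a pseudocount of 1, 73 for a class of 2 or more genes and 77 without barcodes rich in erythroid or fibroblast markers. The log2 ratio of the 7 genes in responders, −1.14 in G1 and −1.28 in G3, was −0.65 and −0.66 with 1 or more response genes, −0.71 and −1.06 in Cd4+ Trdc− barcodes, −1.61 and −1.69 without other types' markers, −1.54 in G1 without the deepest 6%, −1.47 in G3 with 3 or more response genes and −1.52 in G3 thinned to 1500 UMIs. Isg15 in G1, at 0.36, was at −0.12 with 1 or more response genes and −0.15 without the deepest 6%, and Rsad2 in G1, at −0.80, was at 1.0 in Cd4+ Trdc− barcodes. Bst2, Ifi27l2a, Ifit1, Ifit3, Irf7, Oasl1 and Usp18 were below 0 in 7 of 7 alternatives in both libraries. Depth limits Rsad2 most, with 29 to 109 UMIs per library.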
